A study of Mus musculus with 4 samples.

Results

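The Gimap genes described here are Gimap1, Gimap3, Gimap4, Gimap5, Gimap6, Gimap7, Gimap8 and Gimap9. They were taken by symbol from the gene list of the count tables, where they were 8 of 31053 genes, and each symbol matched 1 gene. Their levels were measured in invariant natural killer T (iNKT) cells of the thymus, T cells whose nearly fixed receptor recognises lipids presented by CD1d. The 2 groups were untreated C57BL/6 wildtype mice and untreated Hivep3-/- mice on the C57BL/6 background, all 8 to 9 weeks old, with 2 mice and so 2 libraries per group. Hivep3 encodes a large zinc finger protein, and the sources used here do not say which part of it was deleted. From each mouse, thymocytes that bound CD1d tetramers loaded with the lipid PBS57 were enriched magnetically and sorted as an equal mix of CD44low and CD44high cells, and their RNA was counted at its 5′ end in single cells. That mix set part of every share of cells, because CD44 rises as iNKT cells mature.

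GIMAP proteins, the GTPases of immunity-associated proteins, form a family that is found mainly in lymphocytes and whose genes lie side by side in 1 cluster. They bind guanine nucleotides through a domain related to that of septins and plant immune GTPases, and several sit on the membranes of intracellular compartments. In conventional T cell development their transcripts rise as thymocytes pass from the double positive stage to mature T cells. Gimap5 is the best known member, since loss of it leaves mice and rats with few peripheral T cells, and loss of Gimap1 likewise depletes mature lymphocytes. GIMAP6 binds proteins of the ATG8 family, which build autophagosomes.

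Depth and library quality bear on every value below. The libraries held 4243 to 8374 called cells and 31381738 to 48291764 unique molecular identifiers (UMIs, each standing for 1 captured RNA molecule), and 3651 to 7231 cells per library were kept after filtering. Kept cells held a median of 4596 and 5268 UMIs in C57BL/6 and of 6833 and 6491 UMIs in Hivep3-/-. Their median numbers of genes were 1622 and 1780 against 2247 and 2053. Depth per cell thus went with genotype, and its part in the values below was not tested. Between 26 and 58 cell barcodes were shared by any pair of libraries, at most 1.34% of the smaller library. Replicates of a genotype differed by more than sampling noise, with a chi-square over its degrees of freedom of 39.4 for the C57BL/6 pair and 48.7 for the Hivep3-/- pair. Hivep3 itself was at 38.5 and 36.4 CPM (UMIs scaled to a total of 1000000 per library and class) in C57BL/6 and at 101 and 68.0 CPM in Hivep3-/-. A 5′ count does not tell which exons remained, so this checks nothing. In 1 C57BL/6 library, replicate 1, Xist was at 324 CPM with Y-linked Ddx3y at 0, and the other 3 libraries had Xist at or under 0.731 CPM and Ddx3y at 44.5 CPM or more. So 1 library differed from the others in sex-linked transcripts. Where a Gimap gene lost a call below without that library, this is said, while not all calls gained without it are given.

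Cells were clustered without using any Gimap gene, and clusters were called "-like" a stage by marker genes. Stage 0-like cells (1224 cells), the earliest, were led by Cd24a, Itm2a and Cldn10. Cycling-like cells (2463) were led by genes of DNA synthesis and mitosis such as Mcm3 and Ccnb2, iNKT2-like cells (2677) by Il4, Il6ra and Icos, and iNKT17-like cells (613) by Il23r, Ccr6 and Il1r1. The iNKT1-like cells (10154) came from several clusters, led by killer receptor genes such as Klrb1c, by Ccl5 and granzyme genes, or by interferon response genes such as Ifit3. Within the iNKT1-like cells, 5012 formed a late class rich in Gzma, Gzmb and Ccl5, and their share of kept cells was 15.0% and 22.6% for C57BL/6 and 37.2% and 33.4% for Hivep3-/-. Markers of B cells were near 0 in stage 0-like and iNKT1-like cells, with a summed level of 4.35 to 6.93 CPM in the first and 1.40 to 12.3 CPM in the second.

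The 8 genes span 123.6 kb of mouse chromosome 6, from position 48647234 to 48770851 of GRCm38 (mm10) in the GENCODE vM21 annotation. From the left end they run Gimap8 (48647234 to 48660875), Gimap9 (48676129 to 48679114), Gimap4 (48684549 to 48692060), Gimap6 (48701582 to 48708225), Gimap7 (48718621 to 48724636), Gimap1 (48739054 to 48743795), Gimap5 (48746197 to 48754210) and Gimap3 (48764464 to 48770851). Gimap6 and Gimap3 lie on the minus strand and the others on the plus strand. Gimap3 and Gimap5 are close copies, and 5.12% of the 60-base stretches of Gimap3 transcripts and 3.07% of those of Gimap5 also occur in the other gene, while no other pair shares any. A same-strand gene model, Gm28053, covers 6.44% of the exon bases of Gimap1, 3.69% of those of Gimap5 and 3.48% of those of Gimap7, and for Gimap1 and Gimap7 this includes the first exon of transcripts. Reads in shared exon bases may not be assigned to either gene, so the levels of Gimap1 and Gimap7, and to a lesser degree of Gimap5, are uncertain in absolute terms. Compared between genes, a 5′ UMI count depends on how well each start site is captured, so only the same gene is compared between samples below.

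**Figure D1:**
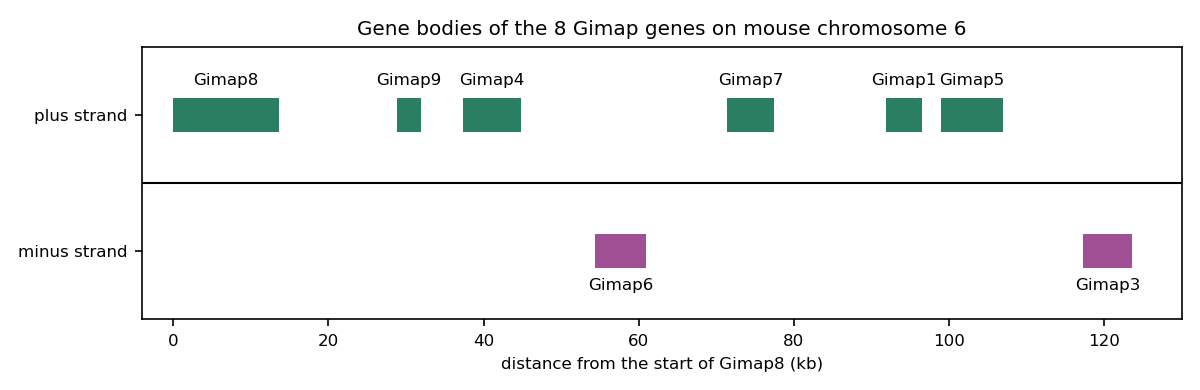
Map of the Gimap cluster on mouse chromosome 6, with distance from the start of Gimap8 in kb on the horizontal axis and the strand of each gene on the vertical axis. Bars are gene bodies to scale, and only Gimap6 and Gimap3 are on the minus strand.

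Promoter windows of 300 bases, 250 before and 50 after an annotated start, were taken from RefSeq (GRCm38.p6), where all 8 genes had an entry. Of these, 4 are shown because their genes mark the contrasts in the data. Across the classes, Gimap4 had its own lowest level and Gimap5 its own highest mean level in the earliest cells. Gimap5 and Gimap8 were the members called between genotypes in dividing cells, and Gimap6 had the smallest p of the family in iNKT1-like cells. Capitals mark 3 short motifs on either strand, TGTGGT (a core of RUNX sites, ACCACA on the other strand), GGAAGT (an ETS site, ACTTCC on the other strand) and CACCC (bound by KLF factors, GGGTG on the other strand), and no 2 of them overlap in these 4 windows. The windows, each written 5′ to 3′ on the strand of its gene, are Gimap4 at chr6:48684328-48684627 (plus strand), Gimap5 at chr6:48745947-48746246 (plus strand), Gimap6 at chr6:48708195-48708494 (minus strand) and the second annotated start of Gimap8 at chr6:48647111-48647410 (plus strand).
Gimap4: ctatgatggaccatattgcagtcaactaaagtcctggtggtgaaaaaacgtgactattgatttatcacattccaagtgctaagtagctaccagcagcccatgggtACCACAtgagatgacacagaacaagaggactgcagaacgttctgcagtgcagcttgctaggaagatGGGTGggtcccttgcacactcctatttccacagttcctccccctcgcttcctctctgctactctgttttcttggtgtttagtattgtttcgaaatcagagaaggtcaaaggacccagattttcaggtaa
Gimap5: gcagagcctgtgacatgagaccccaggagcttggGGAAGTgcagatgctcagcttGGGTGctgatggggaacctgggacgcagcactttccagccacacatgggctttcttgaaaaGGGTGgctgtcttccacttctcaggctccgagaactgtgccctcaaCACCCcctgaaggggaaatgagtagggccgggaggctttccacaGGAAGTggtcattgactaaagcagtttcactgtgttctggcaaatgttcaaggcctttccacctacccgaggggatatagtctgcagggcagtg
Gimap6: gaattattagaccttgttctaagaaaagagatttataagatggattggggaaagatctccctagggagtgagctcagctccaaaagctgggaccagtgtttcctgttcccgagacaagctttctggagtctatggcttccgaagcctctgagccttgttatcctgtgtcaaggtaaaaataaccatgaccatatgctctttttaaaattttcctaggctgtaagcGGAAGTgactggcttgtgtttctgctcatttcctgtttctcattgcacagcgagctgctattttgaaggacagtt
Gimap8: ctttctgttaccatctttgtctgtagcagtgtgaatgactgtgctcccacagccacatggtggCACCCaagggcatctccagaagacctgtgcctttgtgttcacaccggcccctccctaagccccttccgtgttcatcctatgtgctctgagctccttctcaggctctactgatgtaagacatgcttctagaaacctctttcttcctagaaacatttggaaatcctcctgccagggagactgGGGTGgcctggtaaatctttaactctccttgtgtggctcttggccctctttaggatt

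Gimap4 held a RUNX and a KLF match and no ETS match, and Gimap5 held 2 ETS and 3 KLF matches and no RUNX match. Gimap6 held 1 ETS match alone, and this window of Gimap8 held 2 KLF matches alone. Over all 8 genes, the RUNX letters were in 3, the ETS letters in 4 and the KLF letters in 5. The same letters occurred in 16.8%, 23.8% and 57.5% of 32851 mouse promoter windows of that length. A match is a stretch of letters and not a measured binding site.

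Among the 5 named classes, 7 of the 8 genes had their highest mean level in iNKT1-like cells, and Gimap5 had its highest in stage 0-like cells. Clusters left without a stage name are described further below. All 8 were higher in iNKT1-like than in iNKT17-like, iNKT2-like and cycling-like cells in each of the 4 libraries. Summed over the family, iNKT1-like cells were at 1966 and 2410 CPM in C57BL/6 and 1584 and 1613 CPM in Hivep3-/-. The iNKT17-like cells, the producers of the cytokine IL-17, were at 326 and 269 CPM and at 360 and 231 CPM. Stage 0-like cells lay between these, at 772 and 757 CPM in C57BL/6 and 1055 and 1048 CPM in Hivep3-/-, so the libraries of the genotypes did not overlap there. The classes are clusters of the same cells, so these orders are a description over libraries with no test. A CPM level does not tell fewer expressing cells from less RNA per cell.

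**Figure D2:**
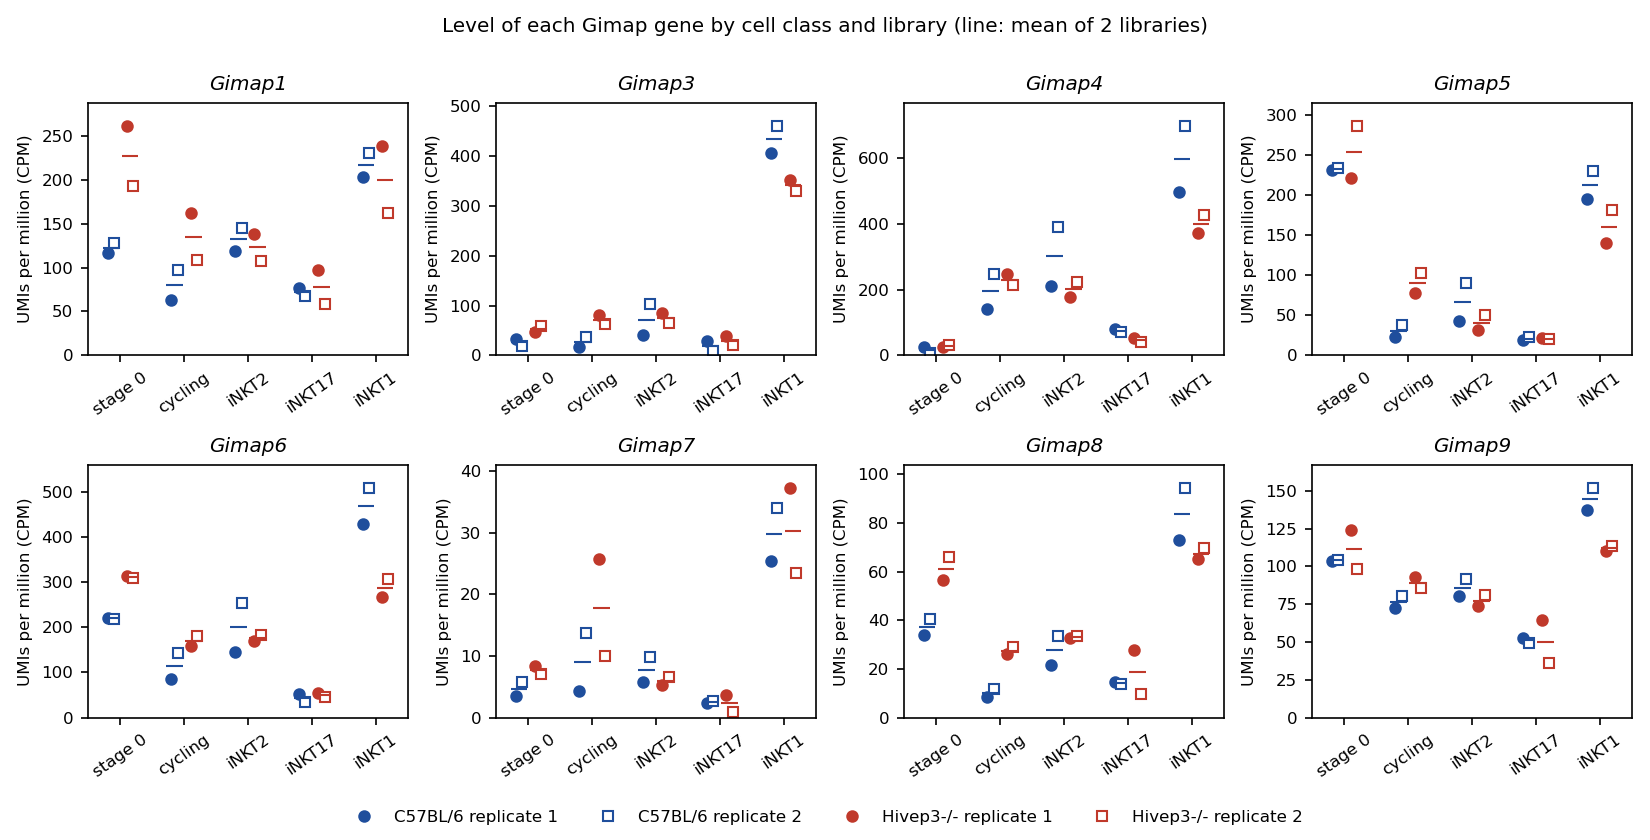
Level of each Gimap gene in CPM (vertical axis, a separate linear scale per gene from 0) by cell class (horizontal axis). Blue points are the C57BL/6 libraries and red points the Hivep3-/- libraries, circles are replicate 1, squares replicate 2, and lines are the mean of 2 libraries. Gimap4 rises from stage 0-like to iNKT1-like cells in every library, while Gimap5 starts high, is low in the cycling-like, iNKT2-like and iNKT17-like classes and is high again in iNKT1-like cells.

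Gimap5, the member most closely tied to T cell survival, was the exception. In stage 0-like cells it was at 231 and 233 CPM in C57BL/6 and at 221 and 286 CPM in Hivep3-/-. In iNKT17-like cells it was at 19.1 and 23.0 CPM and at 21.2 and 20.3 CPM, so the stage 0-like level was 10.2 to 14.1 times the iNKT17-like level within each library. Its iNKT1-like level, 195 and 230 CPM and 140 and 181 CPM, was 0.632 to 0.985 times the stage 0-like level, and thus lower in 4 of 4 libraries. Among the named classes, Gimap5 was therefore high in stage 0-like and iNKT1-like cells and low in the others. It was not as low in 2 clusters left without a stage name, described further below. In that led by Htra3 and Tnni1 it was at 108 and 165 CPM in C57BL/6 and 164 and 194 CPM in Hivep3-/-. In that led by Cd74, Klra3 and Cxcr3 it was at 186 and 297 CPM against 170 and 185 CPM. The order between cycling-like and iNKT2-like cells differed by genotype, with no test. The iNKT2-like level was 1.90 and 2.39 times the cycling-like level in C57BL/6 and 0.406 and 0.489 times it in Hivep3-/-.

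Gimap3, the neighbour and close copy of Gimap5, did not share that early level. Its stage 0-like level was 33.9 and 18.8 CPM in C57BL/6 and 46.4 and 58.7 CPM in Hivep3-/-, and its iNKT1-like level was 407 and 461 CPM and 353 and 330 CPM. The increase between these classes was 5.62 to 24.5 times within a library, where Gimap5 fell in all 4, and at most 12.0 times without C57BL/6 replicate 2, which held 13 Gimap3 UMIs in stage 0-like cells. In iNKT2-like cells Gimap3 was at 41.3 and 102 CPM and at 86.0 and 64.4 CPM, so the iNKT1-like level was 4.11 to 9.85 times the iNKT2-like level within each library, and at most 5.13 times without C57BL/6 replicate 1.

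Gimap4, a member reported to speed the death of T cells, showed the widest range. Its stage 0-like level was 27.0 and 7.25 CPM in C57BL/6 and 24.7 and 30.6 CPM in Hivep3-/-, the lowest of its 5 classes in every library. Cycling-like cells were at 142 and 249 CPM and at 247 and 213 CPM, which was 5.25 to 34.3 times the stage 0-like level of the same library. The iNKT1-like level, 497 and 698 CPM and 372 and 426 CPM, was 13.9 to 96.3 times it, and the largest of both ratios rests on C57BL/6 replicate 2, whose 114 stage 0-like cells were the fewest. Without that library they were at most 10.0 and 18.4 times. Gimap4 was the only member that was lower in stage 0-like than in iNKT17-like cells in all 4 libraries. The other 7 were higher there in all 4.

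Gimap6, the partner of ATG8 proteins, was at 222 and 219 CPM in the stage 0-like cells of C57BL/6 and at 314 and 309 CPM in those of Hivep3-/-. In iNKT1-like cells it was at 430 and 510 CPM and at 268 and 307 CPM, so the class order was not the same in both genotypes. The C57BL/6 libraries were higher in iNKT1-like cells and the Hivep3-/- libraries higher in stage 0-like cells. Gimap1, whose loss depletes mature lymphocytes, showed the same orders, with 117 and 128 CPM in stage 0-like and 202 and 230 CPM in iNKT1-like cells of C57BL/6, against 261 and 193 CPM and 238 and 162 CPM in Hivep3-/-. In Hivep3-/- replicate 2 the levels of Gimap6 in both classes were nearly equal. The class order itself was not tested, and the interaction below tests whether the genotype difference differed between classes.

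Gimap8, a large member with several GTP-binding domains, rose from 33.9 and 40.6 CPM in stage 0-like to 72.8 and 94.5 CPM in iNKT1-like cells of C57BL/6. In Hivep3-/- the step was smaller, from 56.4 and 65.9 CPM to 65.1 and 69.6 CPM, and the ratio over all libraries was 1.06 to 2.33. Gimap9 had the flattest profile, with class means over 4 libraries of 128 ± 19.9 CPM in iNKT1-like, 108 ± 11.2 CPM in stage 0-like, 82.9 ± 8.75 CPM in cycling-like, 81.7 ± 7.33 CPM in iNKT2-like and 50.8 ± 11.6 CPM in iNKT17-like cells (SD, n = 4). Pooled over the 4 libraries, the cycling-like and iNKT2-like levels of Gimap9 did not differ beyond their spread, but their order differed by genotype. The iNKT2-like level was 1.12 and 1.14 times the cycling-like level in C57BL/6 and 0.790 and 0.946 times it in Hivep3-/-. Gimap7 gave few UMIs, at 3.46 to 8.36 CPM in stage 0-like and 23.4 to 37.3 CPM in iNKT1-like cells. In iNKT17-like cells only 1 to 4 UMIs of Gimap7 were counted per library, too few for the filter of the test within that class, so its value in the interaction below has a wide error (-0.19 ± 1.19).

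Inside the iNKT1-like class, 6 of the 8 members were higher in cells outside the late class than in late cells in all 4 libraries. Gimap3 and Gimap7 were mixed. The gap was modest, 1.25 to 1.47 times for Gimap1 and 1.14 to 1.29 times for Gimap5. Members also varied together to different degrees. Over the 20 sums of 4 libraries by 5 classes, the Pearson r of log2(CPM + 1) between a member and the summed other members was 0.933 for Gimap9 and Gimap6, 0.727 for Gimap5 and 0.308 for Gimap4. These 20 points share libraries and depth, so the values are given as a description.

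The question of the design was how loss of Hivep3 alters iNKT cells. Counts were summed per library within each class and tested by the edgeR quasi-likelihood test, with the Benjamini-Hochberg adjustment over all genes tested, and a gene was called where its adjusted p was below 0.05. Positive log2 differences mean a higher level in Hivep3-/-, errors are 1 standard error (SE), and each group had 2 libraries throughout. An exact permutation test of 2 against 2 cannot go below 0.333, so every p rests on the spread that the model shares across genes. Over all kept cells together, none of the 8 was called and none had an unadjusted p under 0.05, by edgeR, against 0.765% of 12291 genes called and 12.0% with such a p, and DESeq2 also called 0. For none of the 8 were the libraries of the genotypes apart, where 33.7% of genes were apart with Hivep3-/- higher and 13.8% with Hivep3-/- lower. Their median log2 difference there was 0.12, beside 0.03 over all genes. The all-cell comparison mixes classes whose Gimap levels and shares both differ. The median fitted log2 differences were -0.43 in iNKT1-like, 0.50 in stage 0-like and 0.71 in cycling-like cells. They were -0.25 in iNKT2-like and 0.02 in iNKT17-like cells. The part of these in the all-cell result was not tested. Summed Gimap levels over all kept cells were 958 and 1608 CPM in C57BL/6 and 1350 and 1232 CPM in Hivep3-/-.

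In iNKT1-like cells the fitted difference was below 0 for all 8 members, with a median log2 difference of -0.43 beside -0.00 over all genes, and none was called by edgeR (0.654% of 10697 genes were called). For Gimap7 it was near 0 (-0.05 ± 0.22), its libraries overlapped at 25.4 and 34.1 CPM against 37.3 and 23.4 CPM, and its sign turned without C57BL/6 replicate 2 (0.17) or Hivep3-/- replicate 2 (0.19). For 5 of them, Gimap6, Gimap9, Gimap4, Gimap3 and Gimap5, the unadjusted p was under 0.05 with the lower value in Hivep3-/-, where 8.65% of all genes had an unadjusted p under 0.05 in either direction. For 6 of 8, the Hivep3-/- pair lay wholly below the C57BL/6 pair, which was so for 12.1% of genes, and for 0 wholly above it (25.6%). Gimap6, at 430 and 510 CPM in C57BL/6 and 268 and 307 CPM in Hivep3-/-, had the largest difference, -0.77 ± 0.16 on the log2 scale or 0.584 times (edgeR, unadjusted p = 0.00200, adjusted p = 0.125). Over 17 alternatives its difference stayed between -0.95 and -0.62, with adjusted p between 0.00012 and 0.421. It was called under 3 of them, including DESeq2, where it was the 1 member called. Late cells were a larger part of the class in Hivep3-/- (the summed late markers were at 3608 and 4252 CPM in C57BL/6 and 5949 and 6444 CPM in Hivep3-/-). Outside the late class Gimap6 was at 499 and 594 CPM against 319 and 341 CPM, a difference of -0.80 ± 0.16 that was not called (adjusted p = 0.16). The part of the make-up of the class in these values was not tested. Summed myeloid markers, which include the adaptor gene Tyrobp that killer lymphocytes also express, were at 160 and 151 CPM in the iNKT1-like cells of C57BL/6 and 228 and 238 CPM in those of Hivep3-/-, and their part in these values was not tested.

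Late iNKT1-like cells alone gave a like picture at smaller size. No member was called by edgeR or DESeq2 (0.615% of 10080 genes were called by edgeR), 3 had an unadjusted p under 0.05 (7.78% of all genes did), and the median log2 difference was -0.27. The Hivep3-/- pair lay wholly below the C57BL/6 pair for 4 members (11.7% of genes) and wholly above it for 0 (24.5%). Gimap6 was at 323 and 414 CPM in C57BL/6 and 238 and 290 CPM in Hivep3-/-, a difference of -0.55 ± 0.19 (adjusted p = 0.454). Gimap7 went the other way, at 19.4 and 26.2 CPM against 36.3 and 24.4 CPM, with libraries that overlapped and a difference of 0.33 ± 0.22 (adjusted p = 0.856). In the larger late cluster, led by Ifitm1 and Ccl5 (2982 cells), Gimap sums overlapped, at 1545 and 1819 CPM against 1573 and 1596 CPM. Gimap7 there was at 14.3 and 13.8 CPM against 43.6 and 26.4 CPM. In the other, led by Ccl1 and Gzmb (2030 cells), the sums were at 1663 and 2133 CPM against 1314 and 1441 CPM. These clusters were not tested alone.

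**Figure D3:**
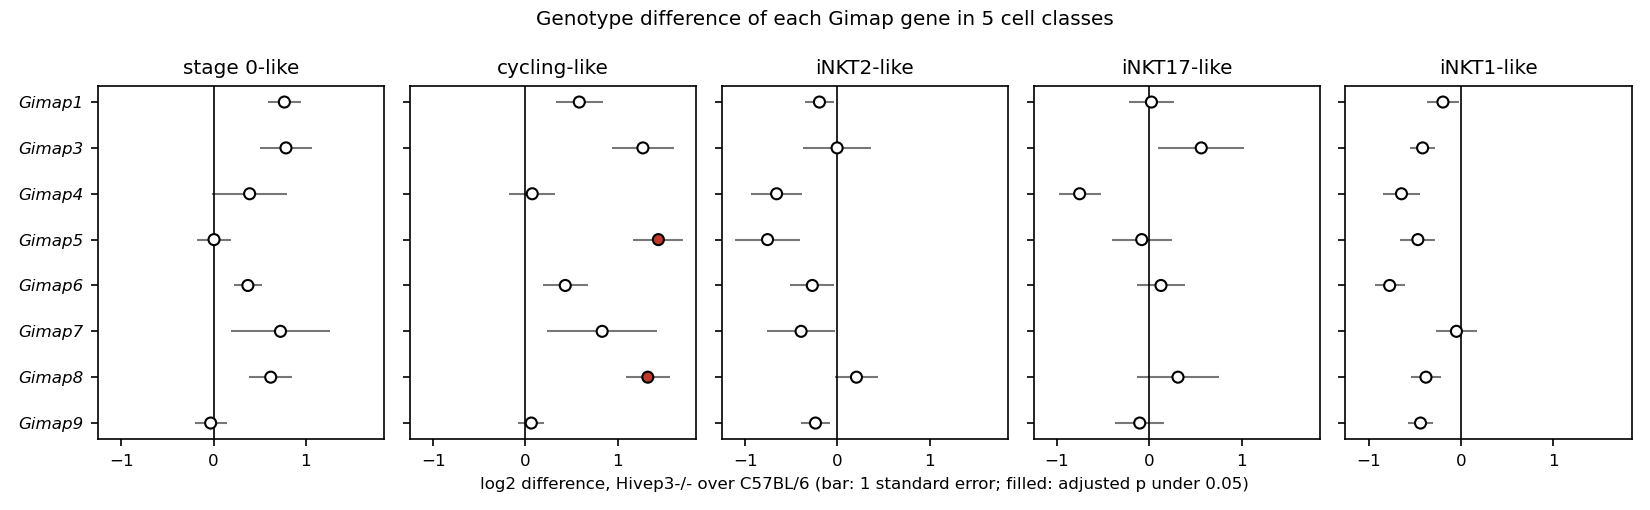
Log2 difference of Hivep3-/- over C57BL/6 (horizontal axis, bars 1 standard error) for each Gimap gene (vertical axis) in 5 cell classes (panels), filled where the adjusted p was under 0.05. Points lie to the right of 0 for all members in cycling-like cells and to the left in iNKT1-like cells, where Gimap7 is near 0, and only Gimap5 and Gimap8 in cycling-like cells are filled.

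In stage 0-like cells the direction was the opposite. There 7 of 8 members were above 0, the median log2 difference was 0.50 beside 0.02 over all genes, and none was called by edgeR or DESeq2 (0.24% of 8752 genes were called by edgeR). The unadjusted p was under 0.05 for 4, all higher in Hivep3-/- (8.31% of all genes had such a p in either direction), and for 5 the Hivep3-/- pair lay wholly above the C57BL/6 pair (30.1% of genes), and for 0 wholly below it (10.3%). Gimap1 was at 117 and 128 CPM in C57BL/6 and 261 and 193 CPM in Hivep3-/-, 1.70 times higher (log2 0.77 ± 0.18, edgeR, unadjusted p = 0.00121, adjusted p = 0.14). Its adjusted p lay between 0.00012 and 0.567 over 15 alternatives, of which 4 gave a call, among them leaving out Hivep3-/- replicate 2 (adjusted p = 0.00354). Gimap3 had a difference of 0.78 ± 0.29 (adjusted p = 0.464), Gimap8 of 0.62 ± 0.23 (adjusted p = 0.485) and Gimap6 of 0.37 ± 0.15 (adjusted p = 0.536). Gimap5, whose own level peaked at this stage, was at 231 and 233 CPM against 221 and 286 CPM, a difference of 0.00 ± 0.18. Markers of double positive thymocytes, the cells from which stage 0 cells arise, summed to 148 and 148 CPM in C57BL/6 and 126 and 204 CPM in Hivep3-/- with all 8 detected. An alternative left out cells with B cell markers and the 56 of 1224 cells with at least 2 UMIs over Rag1, Rag2, Cd8b1, Dntt and Ptcra. It gave no call, but none was made before either, so it does not tell the part of such cells, which was not tested further. Summed markers of mature conventional T cells were at 601 and 721 CPM against 403 and 339 CPM, and their part was not tested.

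Cycling-like cells held the only calls between genotypes among the named classes. Gimap5 was at 22.8 and 37.6 CPM in C57BL/6 and 77.5 and 102 CPM in Hivep3-/-, 2.71 times higher (log2 1.44 ± 0.27, adjusted p = 0.0344). Gimap8 was at 8.32 and 11.8 CPM against 26.1 and 29.0 CPM, 2.51 times higher (1.33 ± 0.24, adjusted p = 0.0312). In this class 3.68% of 10383 genes were called, the highest share of any class, and 18.4% had an unadjusted p under 0.05, as did 3 of the 8 members. Gimap3, at 17.3 and 36.6 CPM against 81.1 and 62.8 CPM, had a difference of 1.27 ± 0.33 (adjusted p = 0.0923) and was called by DESeq2. The libraries of the genotypes did not overlap for 6 of 8 members, all higher in Hivep3-/-, where 41.1% of genes showed that order and 13.6% the opposite one. Both calls rested on single libraries. Gimap8 lost its call without C57BL/6 replicate 1, and Gimap5 and Gimap8 both lost theirs without Hivep3-/- replicate 2.

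The dividing cells of the genotypes were not of the same make-up, and this stands beside every cycling-like value. Summed iNKT1 markers in this class were at 548 and 606 CPM in C57BL/6 and 2606 and 1892 CPM in Hivep3-/-, and summed stage 0 markers at 1258 and 1072 CPM against 2316 and 1970 CPM. Summed iNKT2 markers were at 1699 and 1652 CPM against 1029 and 900 CPM. Late iNKT1 markers were at 95.8 and 180 CPM against 1413 and 300 CPM, with Hivep3-/- replicate 1 far above the rest, and markers of mature conventional T cells at 1134 and 969 CPM against 1601 and 1276 CPM, and the part of these last 2 lists was not tested. When only dividing cells with at most 10 UMIs of the 13 iNKT1 markers were kept (1129 and 361 cells in C57BL/6, 90 and 137 in Hivep3-/-), no member was called. Gimap5 was then at 19.7 and 29.9 CPM against 60.9 and 77.4 CPM (1.37 ± 0.26, adjusted p = 0.0748), and Gimap3 at 11.2 and 22.0 CPM against 27.1 and 22.5 CPM (0.46 ± 0.37, adjusted p = 0.647). When cells were also limited to 20 UMIs of the 11 stage 0 markers, Gimap5 was at 15.8 and 28.9 CPM against 28.3 and 23.2 CPM, with libraries that overlapped and a difference of 0.12 ± 0.43 (adjusted p = 0.991). Gimap8 was at 7.22 and 10.4 CPM against 28.3 and 11.6 CPM there (0.92 ± 0.50, adjusted p = 0.803). That last set held only 29 and 56 Hivep3-/- cells, and both limits on cells were chosen after seeing the data.

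**Figure D4:**
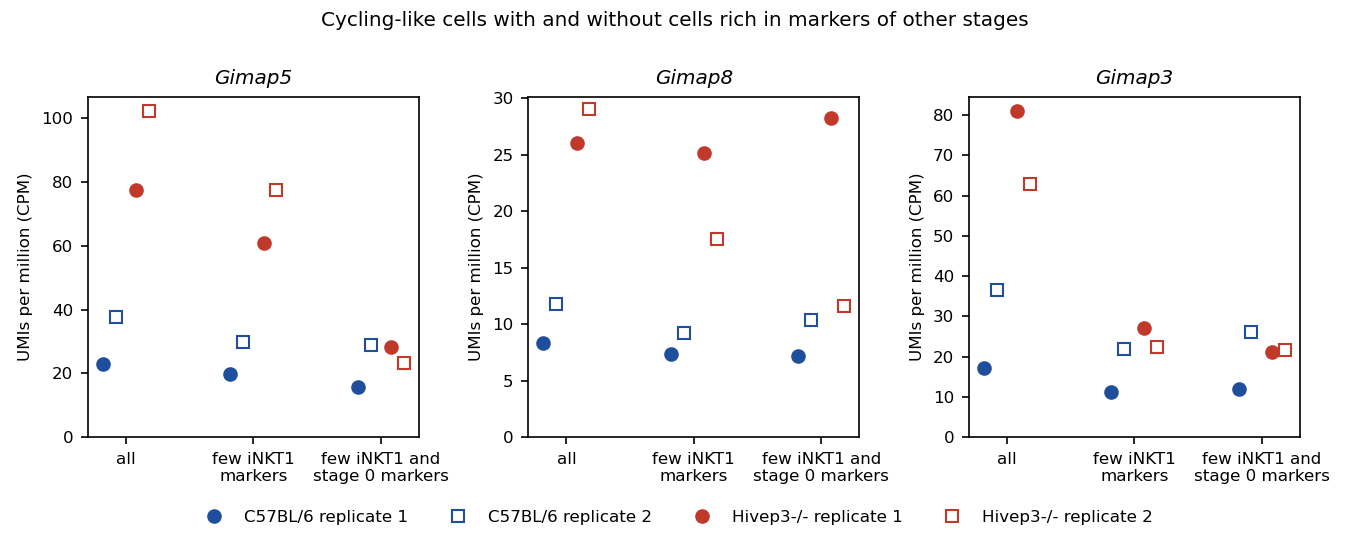
Level of Gimap5, Gimap8 and Gimap3 in CPM (vertical axes, linear from 0) in cycling-like cells, for all of them, for those with at most 10 UMIs of iNKT1 markers, and for those that also had at most 20 UMIs of stage 0 markers. Points are libraries (blue C57BL/6, red Hivep3-/-, circles replicate 1, squares replicate 2). The libraries of the genotypes are apart for Gimap5 in the first set and overlap in the last. For Gimap8 they are apart in every set.

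In iNKT2-like cells, the producers of the cytokine IL-4, no member was called by edgeR or DESeq2 (0.378% of 9514 genes by edgeR) and 1 had an unadjusted p under 0.05 (9.03% of all genes did). Gimap5 was at 43.3 and 89.7 CPM in C57BL/6 and 31.5 and 50.0 CPM in Hivep3-/- (-0.76 ± 0.36, adjusted p = 0.59). Gimap4 was at 211 and 391 CPM against 179 and 224 CPM (-0.66 ± 0.27, adjusted p = 0.517). The libraries of the genotypes overlapped for all 8 members, where 29.2% of genes were apart with Hivep3-/- higher and 12.9% with it lower. For both genes the C57BL/6 replicates differed by about as much as the genotypes did and overlapped the Hivep3-/- libraries, and without C57BL/6 replicate 1 both were called. In iNKT17-like cells 7 members passed the filter on low counts and none was called by edgeR or DESeq2 (0.0656% of 7617 genes by edgeR). Gimap4, at 79.4 and 69.9 CPM against 53.4 and 39.7 CPM, was the 1 member with an unadjusted p under 0.05 (5.62% of all genes) and the 1 whose libraries did not overlap (12.5% of genes were lower in that way and 23.1% higher), with a difference of -0.75 ± 0.23 (adjusted p = 0.496).

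Whether the genotype difference depended on the class was tested directly, by the interaction term of 1 edgeR model over the 20 sums with library as a block and iNKT1-like cells as the reference. In cycling-like cells 7 of 8 members were called, all with a genotype difference above that in iNKT1-like cells, where 11.4% of 11039 genes were called. Gimap5 departed by 1.91 ± 0.20 on the log2 scale (adjusted p = 5.75e-07), Gimap3 by 1.74 ± 0.32 (adjusted p = 0.000775), Gimap8 by 1.67 ± 0.20 (adjusted p = 5.13e-06) and Gimap6 by 1.22 ± 0.19 (adjusted p = 0.000141). Gimap1 departed by 0.78 ± 0.14 (adjusted p = 0.000704), while Gimap7 was not called at 0.93 ± 0.31 (adjusted p = 0.0567). The calls of Gimap4 (0.73 ± 0.21, adjusted p = 0.0273) and Gimap9 (0.47 ± 0.14, adjusted p = 0.0341) rested on single libraries. Gimap4 lost its call without C57BL/6 replicate 1 (adjusted p = 0.118) or Hivep3-/- replicate 1 (adjusted p = 0.18), and Gimap9 without C57BL/6 replicate 1 (adjusted p = 0.26), C57BL/6 replicate 2 (adjusted p = 0.164) or Hivep3-/- replicate 1 (adjusted p = 0.13). The marker sums of the dividing cells given above moved with these values too. With the dividing cells limited by iNKT1 markers, 4 members were called (Gimap5, Gimap8, Gimap6 and Gimap1), with Gimap5 at 1.78 ± 0.23 (adjusted p = 1.79e-05) and 7.51% of genes called. With the limit on stage 0 markers as well, none was called, Gimap5 was at 0.45 ± 0.45 (adjusted p = 0.771), Gimap8 at 1.12 ± 0.49 (adjusted p = 0.361), and only 0.808% of genes were called in sums that held 29 and 56 Hivep3-/- cells.

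Stage 0-like cells departed from iNKT1-like cells for all 8 members in the same direction, and 3 were called (2.24% of genes). These were Gimap6 at 1.11 ± 0.21 (adjusted p = 0.00364), Gimap1 at 0.94 ± 0.16 (adjusted p = 0.00167) and Gimap8 at 0.94 ± 0.23 (adjusted p = 0.0306). Gimap1 and Gimap6 were called in each of 11 alternatives, with adjusted p of at most 0.0143 and 0.0374. Gimap8 was called in 9 and lost its call without C57BL/6 replicate 1 (1.01, adjusted p = 0.311) or replicate 2 (0.91, adjusted p = 0.262). Among these alternatives, the limits on marker UMIs applied to cycling-like cells only. They left the stage 0-like and iNKT1-like sums unchanged, so they did not test these calls. In stage 0-like cells the summed iNKT1 markers were low, at 476 and 512 CPM in C57BL/6 and 375 and 343 CPM in Hivep3-/-, against 8136 CPM or more in iNKT1-like cells. Their summed stage 0 markers were at 7651 and 6889 CPM and at 9139 and 7062 CPM. No member was called in iNKT2-like (2.17% of genes) or iNKT17-like cells (0.507%), where medians were 0.09 and 0.35, and an unadjusted p under 0.05 was found for Gimap8 and Gimap6 in the first (13.9% of all genes) and for Gimap6 in the second (9.28%).

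**Figure D5:**
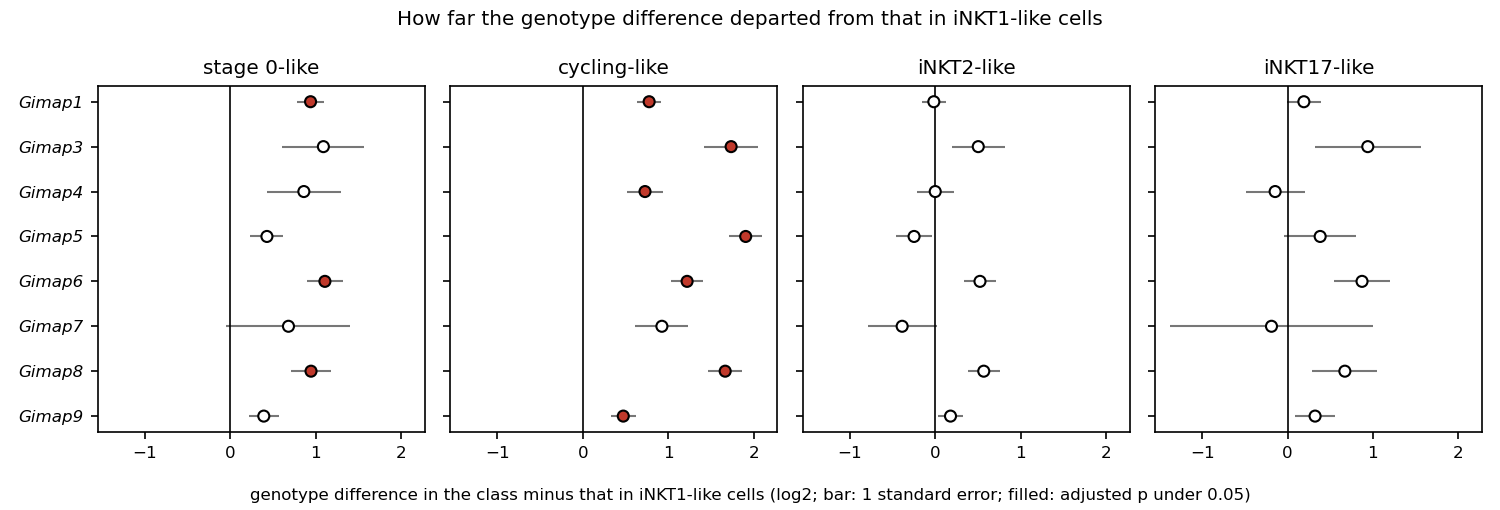
Genotype difference in a class minus that in iNKT1-like cells (horizontal axis, log2, bars 1 standard error) for each Gimap gene (vertical axis) and class (panels), filled where the adjusted p was under 0.05. All members lie to the right of 0 in stage 0-like and cycling-like cells, with 3 and 7 filled, and none is filled in the other panels.

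Other genes of T cell quiescence, autophagy and immune GTPase function were counted by the same test, from lists made with earlier results of these data known. Among 16 quiescence and survival genes, whose median log2 difference in iNKT1-like cells was -0.05, S1pr1, the receptor that draws T cells out of the thymus, rose there (1.15 ± 0.17, adjusted p = 0.0341) and Lef1, a transcription factor of early T cells, fell (-1.37 ± 0.16, adjusted p = 0.0178). In late iNKT1-like cells the transcription factor Tcf7 rose (0.98 ± 0.16, adjusted p = 0.0392), in cycling-like cells the chromatin organiser Satb1 fell by 1.52 ± 0.20 (adjusted p = 0.0113), and none of the list was called in the remaining classes. Of all genes tested, 0.654% were called in iNKT1-like, 0.615% in late iNKT1-like and 3.68% in cycling-like cells. Of 13 autophagy genes, which include the ATG8 partners of GIMAP6, only Gabarapl1 was called, in cycling-like cells (-1.45 ± 0.28, adjusted p = 0.0372), where 3.68% of all genes were. Of 13 other GTPases of immunity, only Gbp2 was, in the same class, where 11 of them were tested (-1.04 ± 0.19, adjusted p = 0.0312). The medians of these 2 lists in iNKT1-like cells were -0.12 and -0.07, against -0.43 for the Gimap genes.

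Genes outside the family whose level followed the summed Gimap level were ranked by Pearson r over the 20 sums, among 5311 genes whose mean reached 20 CPM. Pglyrp1, a peptidoglycan recognition protein, was first at 0.949, followed by Vopp1 (0.879), Nosip (0.874), the phosphatase Dusp2 (0.867), Bin2 (0.855), the SLAM family receptor Ly9 (0.852), Swap70 (0.833), the adenosine receptor Adora2a (0.827), the proton channel Hvcn1 (0.825) and the D-type cyclin Ccnd3 (0.823). Pglyrp1 averaged 235 CPM in iNKT1-like and 25.1 CPM in iNKT17-like cells. Adora2a was highest in stage 0-like cells at 67.7 CPM, as Gimap5 was.

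Of the 26 other genes within 250 kb of the cluster, 16 averaged under 1 CPM over the 20 sums, and 11 of those 16 had no UMI. Only Tmem176b and Tmem176a, both markers of iNKT17 cells, averaged 20 CPM or more, at 97.4 and 94.2 CPM. They peaked in iNKT17-like cells, with means over 4 libraries of 450 ± 72.5 and 443 ± 74.8 CPM (SD), the class in which 7 of 8 Gimap genes had their lowest mean, and their r with the summed Gimap level was -0.61 and -0.59. Of the 26, 13 passed the filter on low counts in at least 1 class, and none of these was called between genotypes in a class where it was tested, while the other 13 were not tested. The read-through model Gm28053 averaged 10.4 CPM, and its r with the summed Gimap level was 0.41. A noncoding RNA gene inside the cluster, 4833403J16Rik, had an r of 0.81 at a mean of only 1.87 CPM. For the remaining neighbours with any UMI, r lay between -0.22 and 0.54.

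Of 19647 kept cells, 2516 were in clusters left without a stage name, and 2 of these clusters were large enough to test, as results added after seeing the data. The cluster led by Cd74, Klra3 and Cxcr3 (1593 cells) had Gimap sums of 1734 and 2829 CPM in C57BL/6 and 1959 and 1577 CPM in Hivep3-/-, near those of iNKT1-like cells. Its means over all libraries were above the iNKT1-like means for Gimap1, Gimap4, Gimap5, Gimap6, Gimap7 and Gimap9. They were below them for Gimap3 and Gimap8. Gimap4, for example, was at 550 ± 211 CPM against 498 ± 143 CPM (SD). None of its members was called (0.162% of 8632 genes were), 2 had an unadjusted p under 0.05 (6.78% of genes), and Gimap4 was called without C57BL/6 replicate 1 (adjusted p = 0.044). For 2 the Hivep3-/- pair lay wholly below the C57BL/6 pair (11.5% of genes) and for 0 wholly above it (24.3%). Gimap7 was at 20.2, 48.6, 91.3 and 20.5 CPM over the libraries, a spread set by Hivep3-/- replicate 1. Summed B cell markers there were at 87.0 and 69.8 CPM against 140 and 201 CPM, and their part was not tested. The cluster led by Htra3 and Tnni1 (808 cells) had Gimap sums of 812 and 878 CPM against 1293 and 1343 CPM. Here Gimap3 (77.5 and 76.7 CPM against 151 and 132 CPM, 0.83 ± 0.20, adjusted p = 0.0363) and Gimap4 (201 and 172 CPM against 297 and 377 CPM, 0.79 ± 0.19, adjusted p = 0.0439) were called, where 3.16% of 8840 genes were. For 6 members the Hivep3-/- pair lay wholly above the C57BL/6 pair (25.8% of genes) and for 0 wholly below it (18.5%), and 5 had an unadjusted p under 0.05 (13% of genes). C57BL/6 replicate 2 gave only 23 cells, and neither gene was called without either C57BL/6 library. Without Hivep3-/- replicate 1 only Gimap4 was called (Gimap3 adjusted p = 0.079), and without Hivep3-/- replicate 2 Gimap3 and Gimap1 were called and Gimap4 was not (adjusted p = 0.228). Summed iNKT1 markers in this cluster were at 2124 and 2557 CPM against 4698 and 4719 CPM and summed iNKT2 markers at 1998 and 1989 CPM against 1046 and 1020 CPM, and their part in the calls was not tested.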

How the data were processed

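Single-cell 5′ RNA libraries of thymic iNKT cells from 2 C57BL/6 and 2 Hivep3-/- mice, 1 library per mouse, were analysed. The deposited matrices hold raw UMI counts per gene and cell, made by the authors with Cell Ranger 3.1.0 on mm10, per the submitters' processing notes, which also name Seurat 3.1.4. Samples were grouped by their labels. Everything else here was computed from those counts.

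Cells with at least 500 and under 4100 genes, at least 1000 UMIs and under 6% mitochondrial UMIs were kept. Their counts were reduced to 30 components of 2000 variable genes (irlba 2.3.5.1, R 4.3.3), leaving out Hivep3, 26 genes studied by the authors, 6 sex-linked genes, receptor segments and the 8 Gimap genes. Libraries were aligned by mutual nearest neighbours (RANN 2.6.2, 20 neighbours) and clustered with Seurat 5.3.0 at resolution 0.8. A cluster was named where at least 3 markers of a stage were among its 50 leading genes, a rule set after seeing the data. A doublet caller (scanpy 1.11.5) marked 0, 4, 1 and 5 cells and had not worked, so no cell was removed, and leaving out the 5% with the highest scores was an alternative.

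UMIs were summed per library and class, since cells are not replicates, and tested with edgeR 4.0.16 (filterByExpr, TMM, quasi-likelihood, two-sided, Benjamini-Hochberg over all genes, called at 0.05). The class sums held 689688 to 19478691 UMIs. Levels are plain UMIs scaled to a total of 1000000 (CPM). The study describes the libraries of a genotype as independent experiments, and which libraries of the 2 genotypes shared one could not be told here. So p-values of the genotype tests within a class, or over all kept cells, measure the spread between these libraries. The interaction model had library as a block, which takes out that spread. Its p-values rest instead on how far class differences varied between libraries of a genotype. Alternatives were DESeq2 1.42.0, library totals, no filter, a replicate block, other cell limits and resolutions, no alignment, Gimap genes kept in the clustering, and leaving out each library. The fit was tested on simulated data.

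The genes named are the 8 members, the 10 genes most like their sum, all neighbours within 250 kb and the called genes of 3 lists, of which some are not reported here. The members and lists were chosen with earlier results of these data known.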

Additional observations from a re-analysis of the deposited data

Results flagged for a closer look

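The genotype difference depended on the cell class for several Gimap genes, by a test of the difference itself (the interaction term of the edgeR model, log2, Hivep3-/- over C57BL/6, each class minus the iNKT1-like class). The departures in stage 0-like cells were 1.11 for Gimap6, 0.94 for Gimap1 and 0.94 for Gimap8. In cycling-like cells they were 1.91 for Gimap5, 1.74 for Gimap3, 1.67 for Gimap8, 1.22 for Gimap6, 0.78 for Gimap1, 0.73 for Gimap4 and 0.47 for Gimap9. Summed iNKT1 and stage 0 markers of the dividing cells differed between genotypes too. With cells rich in iNKT1 markers left out, 4 of the cycling-like members were called. With cells rich in stage 0 markers left out as well, none was, Gimap8 stood at 1.12, Gimap9 at 0.39 and Gimap5 at 0.45, and the sums held 29 and 56 Hivep3-/- cells with 0.808% of all genes called instead of 11.4%.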

How the results depend on the processing

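With 2 libraries per genotype, single libraries decide many calls. The share of all genes called under each setting is not given here, so the counts below show only how unstable the calls were. The counts of Gimap genes called between genotypes, by edgeR unless said otherwise, changed as follows. In stage 0-like cells 0 became 1 with no filter on low counts, with the replicate block and with Gimap genes kept in the clustering, and was 0 to 1 with each library left out. In cycling-like cells 2 became 5 with no filter, 0 with no alignment of libraries and 0 under both limits on marker UMIs, and was 0 to 6 with each library left out. In iNKT2-like cells 0 became 2 with no filter, and was 0 to 2 with each library left out. In iNKT17-like cells 0 became 1 with the replicate block. In iNKT1-like cells 0 became 1 with DESeq2, 2 with no filter and 1 with the replicate block. Leaving out each library gave 0 to 1 in the Klra3 and Cxcr3 cluster and 0 to 2 in the Htra3 and Tnni1 cluster. For the interaction, no filter gave 6 in stage 0-like, 3 in iNKT2-like and 1 in iNKT17-like cells, resolution 1.2 gave 1 in iNKT2-like cells, and the limits on marker UMIs gave 4 and 0 in cycling-like cells. With each library left out, the interaction counts were 0 to 2 in iNKT2-like and 0 to 1 in iNKT17-like cells. The direction turned for Gimap7 in the Klra3 and Cxcr3 cluster without Hivep3-/- replicate 1 (it was -0.75 to 1.42 with each library left out), and for the cycling-like interaction of Gimap4 (-0.11) and Gimap7 (-1.72) under the stricter limit on marker UMIs, and of Gimap7 (-0.34) under the other. Genotype differences of the named classes and of all kept cells turned sign in 65 of 833 alternative fits, in 28 of 55 values. The largest of these values was 0.83, of Gimap7 in cycling-like cells, and that of Gimap4 in stage 0-like cells (0.39) turned with no alignment and without C57BL/6 replicate 2. The causes were not tested. Both limits on marker UMIs, the unnamed clusters and leaving out cells with B cell or double positive thymocyte markers were chosen after seeing the data.

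Same-numbered mice share only a number in the labels. Their deviations from the group means correlated at 0.00 to 0.17 over the classes, across genes, and the replicate block changed the 3 counts given above and no other.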

Other observations

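A small cluster of 47 iNKT1-like cells led by S1pr5, Klrg1 and Zeb2, genes of mature killer lymphocytes, was singled out after its values were seen. It was 0.239% of kept cells and gave 4.22% of all Gimap7 UMIs (111 of 2628), whereas the other 7 members gave 0.373% to 0.659% of theirs. C57BL/6 gave 0 and 2 of its cells and Hivep3-/- gave 40 and 5. In Hivep3-/- replicate 1 it was 0.870% of cells and gave 93 of 1057 Gimap7 UMIs (8.80%). Gimap7 was at 438 CPM in the C57BL/6 cells and at 456 and 554 CPM in the Hivep3-/- cells, against 23.4 to 37.3 CPM over all iNKT1-like cells. With so few cells in 3 of 4 libraries, genotypes could not be compared.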
